A study of Homo sapiens with 9 samples.

Results

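The 8 genes described here are GPR84, CD93, PLAUR, ALOX5, ALOX5AP, TNFAIP2, CYTH4 and FSTL3. They include receptors, leukotriene pathway proteins and signalling proteins, and several are best known from activated macrophages and other myeloid cells. A gene entered through the array row that carried its symbol and no other. All 8 genes of the group had exactly 1 such row, so 8 of the 14232 genes with a symbol of their own, among 22011 transcript clusters on the array, were followed. The group was put together because several of its genes had lower signals after 8 h of treatment than before it. The values at 8 h against 0 h are therefore given as a description without a test.

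The cells were GM12878, a B-lymphoblastoid line derived from 1 donor and immortalised with Epstein-Barr virus. Sulforaphane is an electrophilic isothiocyanate from cruciferous vegetables that is best known for activating the transcription factor NRF2. Untreated cultures (0 h), cultures given 10 µM D,L-sulforaphane for 8 h, and cultures given the same dose for 24 h were compared, with 3 cultures in each group and 1 Affymetrix Human Exon 1.0 ST array per culture. Every culture began at a density of 900000 cells per ml, and the serum content was 15%. The labels also mention a DMSO vehicle, but arrays of vehicle-treated cells at 8 h or 24 h were not analysed here, so sulforaphane, its vehicle and the hours in culture cannot be told apart. Since each array measured bulk RNA, fewer cells expressing a gene and less RNA per cell cannot be told apart either.

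Signals are on the log2 scale, on which a difference of 1 is a doubling. The mean signal per array ran from 7.97 to 8.14, the lowest being untreated replicate 2. The 17 measured B-cell markers, which should define these cells, were bright as a set. Their means per array were 11.08 to 11.21 at 0 h, 11.08 to 11.16 at 8 h and 11.12 to 11.20 at 24 h. The dimmest was VPREB3, at 7.29 at 0 h, and 0 of 17 lay among the 25% of clusters with the lowest signals. Of 22 myeloid markers, 9 lay among those dimmest clusters in untreated cells, among them LYZ, S100A8, S100A12, CD163 and TREM1. Others were brighter, such as ITGAX at 9.92 and CD68 at 9.21, and the median of the 22 was 7.07. RMA signals have no true zero, so a dim marker cannot be called absent. The cells carried the markers of the B lineage, and the word myeloid refers here to where several of the 8 genes are best known, not to the cells measured.

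GPR84 is a Gi-coupled receptor for medium-chain fatty acids that inflammatory stimuli induce on macrophages and neutrophils. PLAUR, the urokinase receptor, holds urokinase at the cell surface, where urokinase turns plasminogen into plasmin, and it also takes part in adhesion through vitronectin and integrins. CD93 is a transmembrane protein with a C-type lectin domain, found on monocytes and endothelium. ALOX5, or 5-lipoxygenase, begins leukotriene synthesis from arachidonic acid, and ALOX5AP is the membrane protein that presents the fatty acid to it. TNFAIP2 is a tumour necrosis factor-induced protein that helps to form membrane nanotubes. CYTH4 is a guanine nucleotide exchange factor for ARF GTPases that is found mainly in blood cells, and FSTL3 is a secreted glycoprotein that binds activin.

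Promoters are shown as sequence context for the 8 genes, not in support of a common change, since the genes were chosen for their values at 8 h. RefSeq promoter sequences (GRCh38.p14) were at hand for 4 of the 8 genes, and the 250 bases before the start are given below, read 5' to 3' on the gene's own strand. These windows are chr13:30713235-30713484 (plus strand) for ALOX5AP, chr14:103123211-103123460 (plus strand) for TNFAIP2, chr19:676142-676391 (plus strand) for FSTL3 and chr19:43670170-43670419 (minus strand) for PLAUR. GPR84, CD93, ALOX5 and CYTH4 are named only. Capitals mark matches on either strand to TGANTCA (AP-1), TGACNNNGC (the core of the antioxidant response element, which NRF2 binds) or GAGGAA (the ETS motif of the PU.1 type).
ALOX5AP: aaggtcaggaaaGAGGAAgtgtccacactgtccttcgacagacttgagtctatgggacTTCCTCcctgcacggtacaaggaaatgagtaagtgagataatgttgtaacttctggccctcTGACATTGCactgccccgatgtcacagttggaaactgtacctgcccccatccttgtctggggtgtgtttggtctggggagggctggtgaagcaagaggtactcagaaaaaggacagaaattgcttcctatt
TNFAIP2: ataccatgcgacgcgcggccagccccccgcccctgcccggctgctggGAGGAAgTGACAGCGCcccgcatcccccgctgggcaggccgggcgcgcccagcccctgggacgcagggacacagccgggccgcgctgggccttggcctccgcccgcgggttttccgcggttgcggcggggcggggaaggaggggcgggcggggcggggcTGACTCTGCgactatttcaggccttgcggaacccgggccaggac
FSTL3: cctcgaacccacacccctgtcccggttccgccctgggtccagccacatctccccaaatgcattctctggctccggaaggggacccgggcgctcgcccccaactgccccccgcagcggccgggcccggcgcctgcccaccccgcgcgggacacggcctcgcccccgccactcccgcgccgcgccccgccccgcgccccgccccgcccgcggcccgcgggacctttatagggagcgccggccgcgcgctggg
PLAUR: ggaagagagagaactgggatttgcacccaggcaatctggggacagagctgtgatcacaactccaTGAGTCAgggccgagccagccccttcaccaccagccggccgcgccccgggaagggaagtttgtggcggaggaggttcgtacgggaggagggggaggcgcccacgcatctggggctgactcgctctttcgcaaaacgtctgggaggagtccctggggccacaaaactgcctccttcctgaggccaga

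The 4 windows shared no marked motif. PLAUR held 1 AP-1 match, TGAGTCA, 186 to 180 bases before the start, a motif found in 6.57% of 35116 promoters of the same length. ALOX5AP held 1 match to the antioxidant response element core (TGACATTGC), and TNFAIP2 held 2 (TGACAGCGC and TGACTCTGC). That core occurred in 10.9% of all promoters. The ETS motif was matched 2 times in ALOX5AP and 1 time in TNFAIP2, and 23.6% of promoters held it. The capitals of the different motifs do not overlap in these windows. The NF-kB consensus, held by 5.21% of promoters, had no match in the 4 windows. The GC box GGGCGG, left in lower case, was matched 6 times in TNFAIP2 and 4 times in FSTL3, with some overlapping matches in both, and 42.6% of promoters held it. FSTL3 and TNFAIP2 had GC contents of 80% and 77.2%, against 63.2% for PLAUR, 49.6% for ALOX5AP and a median of 58% over all promoters. A match describes the letters only and says nothing of binding in these cells.

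GPR84 had the largest differences of the 8 genes at both times. The 3 untreated arrays read 8.98, 8.96 and 8.96, the 8 h arrays 7.48, 7.52 and 7.69, and the 24 h arrays 7.91, 7.93 and 8.00. The 3 groups did not overlap, with 24 h lying between 8 h and 0 h. The 8 h mean differed from the untreated mean by −1.40 ± 0.07 (SE, n = 3 per group), or 2.65-fold. At 24 h GPR84 fell by 1.02 ± 0.07 against 0 h, or 2.03-fold (adjusted p = 0.0014, limma with Benjamini-Hochberg adjustment over all 22011 clusters). The 24 h mean exceeded the 8 h mean by 0.38 (95% interval 0.22 to 0.54), which did not pass the threshold of 0.05 (limma adjusted p = 0.087).

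PLAUR, the other receptor tied to inflammation, was lower with a smaller difference. Its signals were 8.78, 8.68 and 8.76 at 0 h, 8.12, 7.93 and 8.19 at 8 h, and 8.27, 8.32 and 8.33 at 24 h. The treated arrays all lay under the untreated ones, and the 24 h arrays lay above the 8 h arrays. The difference was −0.66 ± 0.08 (SE) at 8 h. PLAUR fell by 0.43 ± 0.08 at 24 h (limma adjusted p = 0.040). From 8 h to 24 h the difference was 0.23 (95% interval 0.05 to 0.40, limma adjusted p = 0.34).

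CD93 stayed at its 8 h level. The untreated arrays read 8.65, 8.48 and 8.63, the 8 h arrays 7.93, 7.86 and 7.99, and the 24 h arrays 7.89, 7.82 and 8.08. Both treated groups lay under the untreated one and overlapped each other. The 8 h difference was −0.66 ± 0.09 (SE), and CD93 fell by 0.66 ± 0.09 at 24 h (limma adjusted p = 0.019). The change between 8 h and 24 h was 0.0047, with a 95% interval of −0.19 to 0.20 (limma adjusted p = 0.99).

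**Figure D1:**
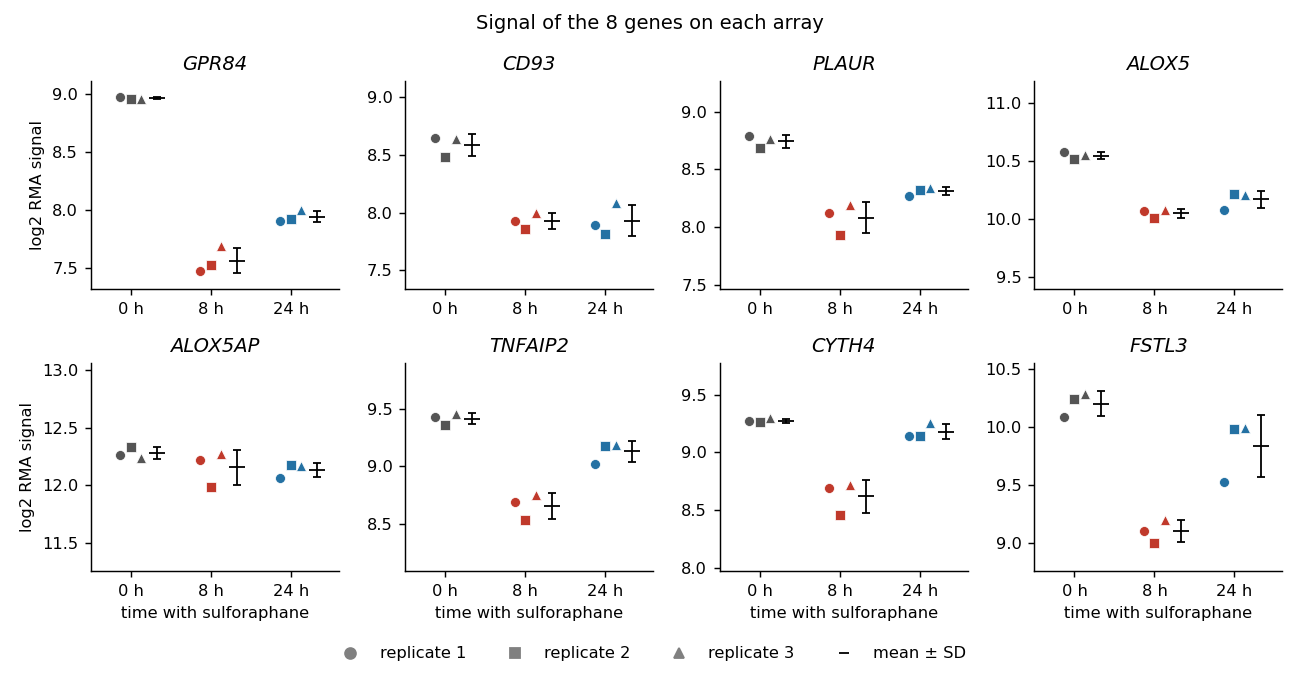
Log2 RMA signal of each of the 8 genes (1 panel per gene) in the 3 arrays of each group, with points for arrays and a line at each group mean. GPR84 lies near 8.97 at 0 h, 7.56 at 8 h and 7.94 at 24 h, while ALOX5AP stays between 11.98 and 12.34.

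Of the leukotriene pair, ALOX5 was called at 24 h against 0 h and ALOX5AP was not. A test between the genes was not run. ALOX5 read 10.58, 10.51 and 10.55 in untreated cells, 10.07, 10.01 and 10.08 at 8 h, and 10.08, 10.21 and 10.21 at 24 h. All treated arrays were under all untreated arrays, and the lowest 24 h array touched the highest 8 h array to 2 decimals. The 8 h difference of the enzyme was −0.50 ± 0.06 (SE), and at 24 h ALOX5 fell by 0.38 ± 0.06 (limma adjusted p = 0.030). Between 8 h and 24 h ALOX5 differed by 0.12 (95% interval −0.02 to 0.26, limma adjusted p = 0.56).

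ALOX5AP, the partner protein of ALOX5, read 12.26, 12.34 and 12.24 at 0 h, 12.22, 11.98 and 12.27 at 8 h, and 12.07, 12.17 and 12.17 at 24 h. The 8 h arrays overlapped the untreated ones and were spread by a single low array, replicate 2. ALOX5AP was the 1 gene of the 8 that was not called at 8 h, with a difference of −0.12 ± 0.08 (SE). At 24 h the difference was −0.14 ± 0.08 (95% interval −0.34 to 0.05, limma adjusted p = 0.34), although the arrays of the 2 groups did not overlap.

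TNFAIP2 read 9.43, 9.36 and 9.45 in untreated cells, 8.69, 8.53 and 8.75 at 8 h, and 9.03, 9.18 and 9.19 at 24 h. The groups were separate from one another, with 24 h in the middle. The difference from 0 h was −0.75 ± 0.08 (SE) at 8 h and −0.28 ± 0.08 at 24 h, the second not passing (limma adjusted p = 0.12). The 24 h mean was above the 8 h mean by 0.47 (95% interval 0.29 to 0.65, limma adjusted p = 0.069).

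CYTH4 came nearest to its untreated level by 24 h. Its signals were 9.27, 9.26 and 9.29 at 0 h, 8.69, 8.46 and 8.72 at 8 h, and 9.14, 9.14 and 9.26 at 24 h. The 8 h arrays lay far under both other groups, and the 24 h arrays lay just under the untreated arrays. At 8 h the difference was −0.65 ± 0.08 (SE), and at 24 h it was −0.10 ± 0.08 (limma adjusted p = 0.49). CYTH4 rose by 0.56 ± 0.08 from 8 h to 24 h (95% interval 0.37 to 0.74, limma adjusted p = 0.042). Of 9 fits that each left out 1 array, only the one without untreated replicate 2 kept that call, and the adjusted p ran from 0.038 to 0.20. The call was also lost under 2 of 6 other settings, among them quantile normalisation of the arrays. The comparison shares the 8 h arrays with the one the genes were chosen on.

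FSTL3, the secreted activin-binding protein, had the second largest difference at 8 h. It read 10.08, 10.24 and 10.29 in untreated cells, 9.10, 9.00 and 9.19 at 8 h, and 9.53, 9.98 and 9.99 at 24 h. The 3 groups did not overlap, and replicate 1 at 24 h was the low array of its group. The 8 h difference was −1.10 ± 0.13 (SE), or 2.15-fold lower. At 24 h it was −0.37 ± 0.13 (limma adjusted p = 0.19). Against 8 h, the 24 h mean of FSTL3 was 0.74 higher (95% interval 0.43 to 1.04, limma adjusted p = 0.087). That difference passed in 1 of 9 fits without 1 array, the fit without 24 h replicate 1 (0.89, limma adjusted p = 0.046). Over the 9 fits it ran from 0.66 to 0.89, with limma adjusted p from 0.046 to 0.32.

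Counted over the group, 7 of 8 genes were called lower at 8 h, where 0.327% of all clusters were, but the choice of genes used that comparison and nothing is read from the count. For the same 7 genes the 8 h arrays lay wholly under the untreated ones, as for 8.55% of clusters. The median difference of the 8 genes was −0.66 at 8 h, against −0.01 over all clusters. At 24 h against 0 h, 4 of the 8 genes were called lower (GPR84, CD93, PLAUR and ALOX5) and 0 higher, against 0.791% of clusters called lower. The untreated and 24 h arrays did not overlap for any of the 8 genes, all lower, as for 8.75% of clusters. The median was −0.37, against 0.02 over all clusters. This comparison uses the same untreated arrays as the choice of genes, so it is not independent of it. The p-values measure the spread between cultures of 1 cell line.

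GPR84 passed at 24 h in all 9 fits that left out an array, with adjusted p from 0.0019 to 0.016. CD93 passed in 5 of them and was lost when 1 of 4 arrays was absent, namely untreated replicate 3, the first 8 h replicate and replicates 1 and 2 of 24 h. ALOX5 passed in 3, which lacked replicate 1 or 2 of the untreated cells or replicate 2 of 8 h, and PLAUR in 1, which lacked replicate 2 of 8 h. Over these fits the 24 h count was 1 to 4, and it was 1 without untreated replicate 3, 8 h replicate 1, or replicate 1 or 2 of 24 h. The 8 h arrays enter the comparison of 24 h with 0 h only through the shared spread and the adjustment.

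**Figure D2:**
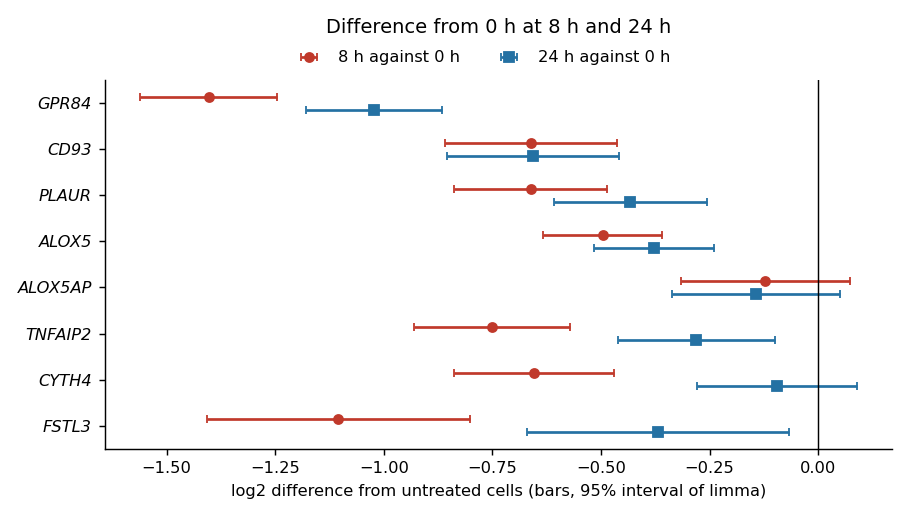
Difference of each gene from untreated cells on the log2 scale, for 8 h (circles) and 24 h (squares), with bars for limma's 95% interval. The 8 h and 24 h values coincide for CD93 (both −0.66) and lie farthest apart for FSTL3 (−1.10 and −0.37).

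From 8 h to 24 h, CYTH4 was the 1 gene of the 8 that was called, as higher, where 0.1% of clusters were called higher. The 24 h arrays lay wholly above the 8 h arrays for 6 of the 8 genes, against 15.2% of clusters, and overlapped them for CD93 and ALOX5AP. Expressed as the share of the 8 h difference still present at 24 h, CD93 kept 99.3%, ALOX5 76.3%, GPR84 72.9% and PLAUR 65.4%. TNFAIP2 kept 37.3%, FSTL3 33.4% and CYTH4 14.6%. ALOX5AP gave 118%, but neither of its differences passed, so that share is of a value not told apart from 0. These shares describe the means, and differences between genes in them were not tested. The genes were chosen on their 8 h values, so these counts and shares are not independent of that choice.

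Arrays of the same group differed in a way that most of the 8 genes shared. Among the untreated arrays, replicate 2 was lowest for 6 of the 8 genes, as it was for 45.2% of all clusters. Among the 8 h arrays, replicate 2 had the lowest signal for 7 of the 8 genes and replicate 3 the highest for 8 of 8. Replicate 3 was the highest 8 h array for 34.8% of all clusters. Replicate 2 was also the lowest 8 h array for 45.6% of all clusters, and its mean signal was 8.05 against 8.09 and 8.10. At 24 h, replicate 1 was lowest for 7 of the 8 genes, as it was for 37.6% of all clusters. Its mean over all clusters, 8.14, was the highest of that group.

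**Figure D3:**
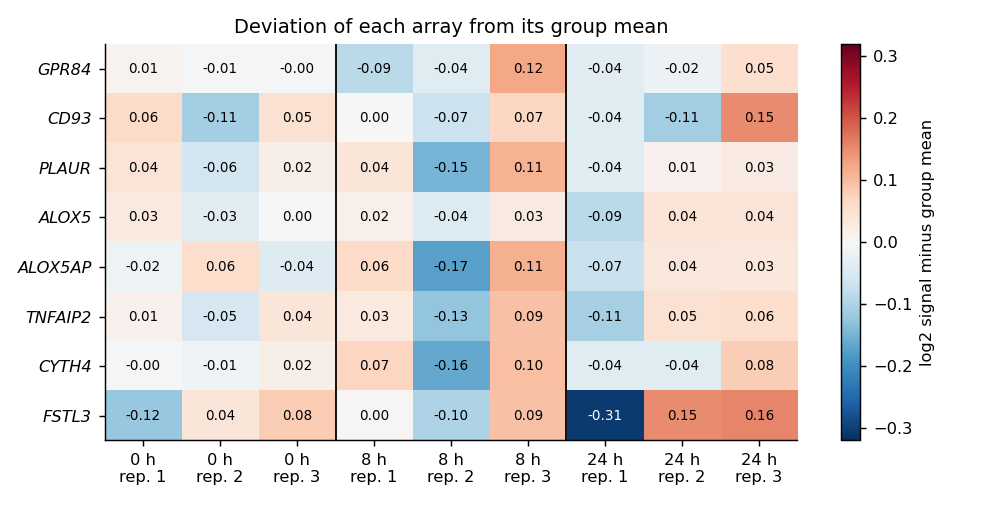
Deviation of each gene (rows) from its own group mean on the log2 scale in each of the 9 arrays (columns), as a colour scale with the value printed in each cell. The columns of 8 h replicate 2 and 24 h replicate 1 are negative for all 8 genes, and those of 8 h replicate 3 and 24 h replicate 3 are positive for all 8.

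Over all 9 arrays, the 28 pairs among the 8 genes had Pearson correlations of 0.46 to 0.98 (median 0.87), which largely carry the group differences the genes were chosen for. After each gene's group means were subtracted, the 28 correlations ran from 0.22 to 0.90, with a median of 0.58, and PLAUR with TNFAIP2 was the highest pair. For each of the 8 genes, between 53.3% and 61.5% of 14220 other genes had a correlation above 0 on the same scale, with medians from 0.036 to 0.22. All pairs share the same 9 arrays and their array-wide shifts, so these values are a description.

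The genes whose signals over the 9 arrays were most like those of GPR84, among 3717 genes with an SD of at least 0.2, were ASB2 (Pearson r = 0.98), GNG2 (0.98), TNFRSF11B (0.97), OAS1 (0.97) and ZNF367 (0.97). ASB2 is an adaptor of a ubiquitin ligase, GNG2 a G protein gamma subunit, TNFRSF11B the decoy receptor osteoprotegerin and OAS1 an interferon-induced oligoadenylate synthetase. Those nearest to PLAUR were OAS1 (0.99), CDK10 (0.99), OAS2 (0.98), RIN2 (0.98) and LIMA1 (0.98). Nearest to the mean of the 8 genes, each centred on its own mean, were ASB2 (0.99), OAS1 (0.98), TESC (0.98), SEPTIN3 (0.98) and TNFRSF11B (0.97). Like those among the 8 genes, these correlations over 9 arrays largely carry the group differences and are a description. The 3 arrays at 24 h hold the same value for SEPTIN3.

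Other genes of the systems around the 8 genes are given next, where 0.595% of all clusters were called in either direction at 8 h and 1.62% at 24 h, and 15.1% and 20.4% had an unadjusted p under 0.05. The gene lists were chosen with earlier results of these data known, so their counts here and below are a description. In the fatty acid and metabolite receptors and the G proteins they signal through, 2 of 24 other genes fell at 8 h. GNG2 fell by 0.60 ± 0.05 (SE, limma adjusted p = 0.0066) and ARRB1, the receptor-desensitising beta-arrestin, fell by 0.53 ± 0.06 (limma adjusted p = 0.014). GNG2 was called in all 9 fits without 1 array, and ARRB1 in 7. GNG2 was named above among the genes most like GPR84, so its call is not separate from the choice of GPR84. At 24 h GNG2 was the 1 gene called, and it fell by 0.34 ± 0.05 (limma adjusted p = 0.029, kept in 3 of 9 such fits). The median of the 24 was −0.07 at both times.

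The other genes of the pathways around ALOX5 and PLAUR mostly did not pass. Among 27 leukotriene and prostanoid genes, 0 were called at 8 h (limma, 3 with an unadjusted p under 0.05) and 1 at 24 h, COTL1, an actin-binding protein that also binds 5-lipoxygenase. COTL1 fell by 0.52 ± 0.10 (SE, limma adjusted p = 0.044) and was called in 1 of 9 fits without 1 array. Their medians were −0.09 and −0.07. Of 22 urokinase and plasminogen genes, limma called 0 at either time, with an unadjusted p under 0.05 for 2 at 8 h and 7 at 24 h. The smallest p-values were those of the integrin chains ITGB2 at 8 h (−0.35 ± 0.07, limma adjusted p = 0.067) and ITGB3 at 24 h (−0.47 ± 0.11, limma adjusted p = 0.088). The ligand of PLAUR, PLAU, differed by −0.39 ± 0.11 at 8 h (limma adjusted p = 0.17) and was picked out after its values were seen.

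**Figure D4:**
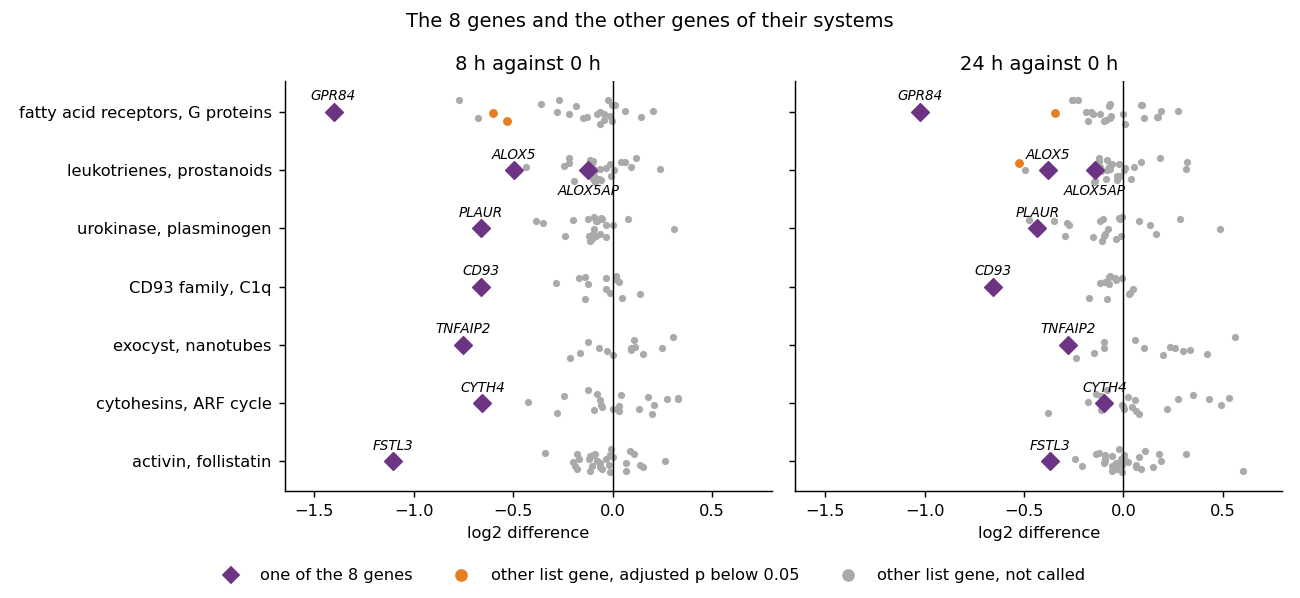
Log2 difference from untreated cells at 8 h (left) and 24 h (right) for the 8 genes (diamonds) and the other genes of the system each belongs to (dots, coloured where limma's adjusted p is under 0.05). GPR84 lies at −1.40 and FSTL3 at −1.10 at 8 h. The 8 genes were chosen on that comparison, so nothing is read from their distance to the other genes there. The coloured dots are GNG2 and ARRB1 at 8 h and GNG2 and COTL1 at 24 h.

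No gene of the remaining systems was called by limma at 8 h or 24 h against 0 h. Those were 13 genes of the CD93 family and complement C1q, 13 exocyst and nanotube genes around TNFAIP2, 20 cytohesin and ARF cycle genes, and 30 genes of the activin and follistatin system. In that order, 1, 2, 6 and 3 genes had an unadjusted p under 0.05 at 8 h, and 1, 3, 5 and 5 at 24 h. The medians at 8 h were −0.03, 0.09, 0.02 and −0.06. CYTH2, a relative of CYTH4, differed by 0.33 ± 0.06 (SE) at 8 h (limma adjusted p = 0.061), and the GTPase ARF6 by −0.42 ± 0.09 (limma adjusted p = 0.077).

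A list of inflammatory targets of NF-kB, the transcription factor that also induces TNFAIP2, also held subunits of NF-kB itself, such as RELA. It was chosen with earlier results of these data known, so its counts are a description. At 8 h, 2 of its 27 measured genes fell. IER3, an immediate early gene, fell by 0.90 ± 0.07 (SE, limma adjusted p = 0.0044, called in 9 of 9 fits without 1 array). CCL20, a chemokine, fell by 1.46 ± 0.21 (limma adjusted p = 0.031, called in 2 of 9). At 24 h limma called 0 of the 27, and 7 had an unadjusted p under 0.05. The list's median was −0.07 at 8 h and 0.04 at 24 h.

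Markers of other cell types were followed beside the 8 genes. Of the 22 myeloid markers, 0 were called by limma at 8 h or 24 h (7 and 4 with an unadjusted p under 0.05), while 20 had a difference below 0 at 8 h and 21 at 24 h, with medians of −0.12 and −0.15. Their mean per array was 6.78 to 6.88 at 0 h, 6.66 to 6.74 at 8 h and 6.67 to 6.73 at 24 h, so that the treated arrays lay under the untreated ones. All clusters gave 53% below 0 at 8 h and 46.9% at 24 h. Of 10 myeloid transcription factors, limma called 0 at either time, and 0 had an unadjusted p under 0.05, with medians of −0.05 and −0.02. Of 15 T and NK cell markers, limma called 0 at either time (3 and 5 with an unadjusted p under 0.05), with medians of −0.11 and −0.12. Their mean per array was 7.20 to 7.30 at 0 h, 7.10 to 7.17 at 8 h and 7.12 to 7.22 at 24 h. Of 12 endothelial and stromal markers, THY1 fell at 8 h (−0.51, limma adjusted p = 0.019) and PECAM1, an adhesion molecule also found on leukocytes, fell at 24 h (−0.43, limma adjusted p = 0.040). THY1 was called in 4 and PECAM1 in 3 of 9 fits without 1 array. All 12 were below 0 at 8 h, and their mean per array was 6.69 to 6.81 at 0 h, 6.61 to 6.62 at 8 h and 6.59 to 6.64 at 24 h. The part of any of these markers in the values of the 8 genes was not tested.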

How the data were processed

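The authors summarised core transcript clusters with gene-level RMA and sketch-quantile normalisation in Affymetrix Expression Console, per the labels and the submitters' processing notes. Each deposited value is a log2 signal for a cluster on an array, a scale read from the value range. For software versions, annotation and build: not given in the sources used here. Of 22011 clusters, 14432 had 1 gene symbol, 2408 several and 5171 none in the annotation table, and only the first were named.

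The 3 groups were fitted with limma 3.58.1 (R 4.3.3) as group means over all clusters, without covariates or a filter. P-values are from the moderated test, adjusted by Benjamini-Hochberg over all clusters, with 0.05 as the threshold. The number of arrays limits the precision. The script was tested on simulated data.

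The members, the 13 gene lists and the motifs were chosen with earlier results of these data known. Named genes are the members, called genes of each list at 8 h or 24 h against 0 h (at most 4) or else the 2 with the smallest p, and the 5 genes most correlated with GPR84, with PLAUR and with the members' mean. Some of these are given only as counts. Alternatives were a replicate block, a filter on low signals, 2 normalisations, a trended prior variance, array weights and leaving out each array.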

Additional observations from a re-analysis of the deposited data

Results flagged for a closer look

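The difference of CYTH4 from untreated cells was −0.65 at 8 h and −0.10 at 24 h, and these 2 effects differed by 0.56 (limma adjusted p = 0.042 over all clusters), which is the comparison of 24 h with 8 h. That call was lost in 8 of 9 fits without 1 array and under 2 of 6 other settings. The same difference between the effects was 0.74 for FSTL3, 0.47 for TNFAIP2 and 0.38 for GPR84, none of which passed. All of these rest on the 8 h arrays, on which the genes were chosen.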

How the results depend on the processing

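Of the 8 genes, 7 were called lower at 8 h, against 0.327% of all clusters. At 24 h against 0 h, 4 were called lower (0.791% of clusters), and at 24 h against 8 h, 1 higher (0.1%). The genes were chosen on the comparison of 8 h with 0 h, so none of these counts is independent of that choice. Leaving out 1 array gave 1 to 7, 1 to 4 and 0 to 1, in that order. The 24 h against 8 h count was 0 after quantile normalisation, 2 without the 25% lowest clusters and 4 with array weights fitted gene by gene, an alternative chosen after seeing the data. Default array weights stopped before converging and are not given. With the replicate number as a block the counts were 6, 3 and 0. The calls lost were ALOX5 (at 8 h, and at 24 h with adjusted p = 0.051) and CYTH4 (0.067). Among list genes the block ended the calls of THY1 (adjusted p = 0.053), PECAM1 (0.055), COTL1 (0.060), BLK (0.051) and, between 8 h and 24 h, IER3 (0.068). Same-numbered arrays had deviations correlated from −0.14 to 0.39, over 0.1 in 3 of 9 pairs. Arrays with different numbers gave −0.42 to 0.13. The highest values, 0.39 for replicate 1 and 0.38 for replicate 2, were between same-numbered arrays of 0 h and 24 h. The main fit did not take the numbers to pair the cultures, and whether they do was not tested. Over all clusters, 131 were called at 8 h, against 85 with the block, 302 without the lowest clusters, 390 after quantile normalisation, 288 after median centring, 1703 with weights and 9 to 654 without 1 array. At 24 h, 357 were called (183 higher, 174 lower), against 560 after quantile normalisation (216 and 344), 1889 with weights and 21 to 768 without 1 array. Median centring called 510, 204 higher and 306 lower, and the block 378, 241 higher and 137 lower. Between 8 h and 24 h, 72 were called, against 44, 109 and 1325 with block, quantile and weights, and 4 to 160 without 1 array. Of the list genes other than the members, 8 were called at 8 h or 24 h against 0 h, 5 with the block, 40 with weights and 2 to 12 without 1 array. The uncalled CD93 difference between 8 h and 24 h turned to −0.029 after quantile normalisation and −0.036 after centring, and ran from −0.071 to 0.061 without 1 array. That of ALOX5AP ran from −0.11 to 0.035. The causes were not tested. As each of the 8 genes had 1 row, averaging rows of a symbol changed nothing.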

Other observations

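Of 252 distinct genes on the 13 lists, 1 was called between 8 h and 24 h, as higher. Over all clusters, 72 of 22011 were called in either direction, and 0.1% were called higher. IER3, an immediate early gene, rose by 0.58 (limma adjusted p = 0.025), after having fallen at 8 h. With the replicate number as a block this rise was not called (limma adjusted p = 0.068). Among 17 B-cell markers, limma called 0 at 8 h (3 with an unadjusted p under 0.05) and 1 at 24 h, the Src family kinase BLK, which rose by 0.44 ± 0.08 (SE, limma adjusted p = 0.038). That call was kept in 0 of 9 fits that left out 1 array.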
